A study of Mus musculus with 19 samples.

Results

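The microRNA names of the myeloid and immune precursors miR-142, miR-223, miR-21 and miR-511 were followed in small RNA libraries of the hippocampal CA1 region. They were taken by name alone: every row of the count tables beginning mmu-miR-142-, mmu-miR-223-, mmu-miR-21- or mmu-miR-511-, both arms. That rule gave 8 of the 1148 miRNAs listed. The filter on low counts kept 5 of the 8 for testing (miR-142-5p, miR-142-3p, miR-21-5p, miR-21-3p and miR-223-3p), among 509 miRNAs tested. The other 3 (miR-223-5p, miR-511-3p and miR-511-5p) are given by value.

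All mice were wild type and of the strain written C57B/6JRj. Young vehicle libraries (n = 8) came from mice of 3 months, aged vehicle libraries (n = 5) from mice of 20 months, and aged SAHA libraries (n = 6) from mice of 20 months that drank SAHA at 0.67 g per L. SAHA (vorinostat) inhibits histone deacetylases, enzymes that remove acetyl groups from histones. Every group, controls included, received the vehicle cyclodextrin at 18 g per L. Treatment of the aged mice lasted 4 weeks, and the sources used here do not give its length in the young mice. The labels do not say that each library is 1 animal, so p-values measure the spread between these libraries, which may be partly technical. Because the tissue is a mixture of cells, fewer cells of a type and less RNA per cell cannot be told apart.

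A miRNA is cut from a hairpin precursor that can yield a mature strand from each side, the 5p and 3p arms, and bases 2 to 8 of the strand (the seed) pair with target mRNAs. miR-142 is made almost only in blood-derived cells and marks microglia and infiltrating leukocytes in brain. miR-223 is abundant in neutrophils and monocytes. miR-21 is present in many cell types and is induced in inflammation and reactive glia. miR-511 lies in an intron of Mrc1, the mannose receptor gene of perivascular and other tissue macrophages.

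The sequences of the 5 tested members are shown because none of them shares a seed with another. They come from 3 hairpins, with both arms of miR-142 and of miR-21, so the arms of a hairpin are not independent and counts over 5 members rest on 3 precursors. Capitals mark the seed. The strands are from RefSeq for GRCm38.p6, which held 7 of the 8 members, with 7 different seeds, under the names miR-142a and miR-21a where the files have miR-142 and miR-21.
miR-142-5p: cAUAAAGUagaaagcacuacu
miR-142-3p: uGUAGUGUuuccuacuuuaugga
miR-21-5p: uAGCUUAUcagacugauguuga
miR-21-3p: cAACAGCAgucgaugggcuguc
miR-223-3p: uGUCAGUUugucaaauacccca

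Precursors with related strands exist in the reference and bear on how reads are assigned. miR-21c shares the seed of miR-21-5p and its first 15 bases, and miR-142b is cut from the opposite strand of the miR-142 locus, where its 20 bases are the exact reverse complement of part of the 23-base miR-142-3p. Neither name has a row in the count files, and the sources used here do not say whether counting used the strand. Reads of miR-142b could therefore have entered the values of miR-142-3p. miR-21c lies on chromosome 8 and differs from miR-21-5p after the first 15 bases, so a read covering those later bases has a closer match there. Shorter reads of miR-21c could still have entered the values of miR-21-5p. How many reads of either name did so cannot be told from the counts. In these lines capitals again mark bases 2 to 8.
miR-21c: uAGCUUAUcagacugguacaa
miR-142b: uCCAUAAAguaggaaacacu

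The miR-142 precursor (Mir142) lies at chr11:87756864-87756927 on the plus strand of GRCm38, in an intron of the long non-coding RNA Mir142hg. The miR-21 precursor (Mir21a) lies 1173 kb away at chr11:86584067-86584158 on the minus strand, in an exon, within the untranslated region, of 1 coding transcript of Vmp1. The miR-223 precursor (Mir223) lies at chrX:96242817-96242926 on the plus strand, in an exon of the non-coding transcript F630028O10Rik. The miR-511 precursor (Mir511) lies at chr2:14261003-14261081 on the plus strand, in an intron of Mrc1. The hairpin of miR-142 is shown to place both of its arms, which are in capitals, 5p before 3p.
Mir142 hairpin: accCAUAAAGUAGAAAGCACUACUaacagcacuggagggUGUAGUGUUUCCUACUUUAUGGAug

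Reads assigned to miRNAs totalled 3585489 to 6808281 per library. The neuronal miRNAs listed as a check of the tissue (among them miR-124-3p, miR-128-3p and miR-9-5p) summed to 67489 CPM (counts per 1000000 miRNA reads) or more in every library. One library, aged SAHA 1, stood apart: 16.1% of its tested miRNAs lay over 1.5-fold from the median of the other libraries of its group, against 2.16% to 7.47% in the other 18. It held the highest value of all 19 libraries for both arms of miR-142 and both arms of miR-21, while its total of 5410804 counts was the 7th highest. Results that rest on it are given with and without it.

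Levels are in CPM after TMM scaling, which corrects for differences in composition between libraries. By mean CPM the most abundant member was miR-21-5p at 2469 (rank 52 of 1148), followed by miR-142-5p at 381.3 (rank 133). miR-21-3p averaged 33.2 (rank 280), miR-142-3p 10.97 (rank 380) and miR-223-3p 5.75 (rank 421). The 3 remaining members averaged 0.308 CPM (miR-223-5p), 0.301 CPM (miR-511-3p) and 0.273 CPM (miR-511-5p), and these 3 levels are not distinguishable at this depth. CPM counts reads of different sequences, which can differ in how well a library captures them.

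miR-142-5p, the major strand of the leukocyte precursor, ranged from 296 CPM through a median of 306 to 391 in the 8 young vehicle libraries. The 5 aged vehicle libraries read 364, 406, 354, 512 and 360 CPM. Aged SAHA libraries ran from 342 through a median of 395.5 to 729 CPM. Every one of the 11 aged libraries, treated or not, lay above 7 of the 8 young libraries, whose second highest was 332 CPM, and the exception was young vehicle 6 at 391. This comparison was chosen after the values were seen, and 0.589% of the tested miRNAs met it. The group means were 319.9 ± 31.4 (SD, n = 8), 399.2 ± 66.3 (SD, n = 5) and 448.2 ± 143 (SD, n = 6).

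In aged SAHA against young vehicle, miR-142-5p was called higher at 1.40-fold (95% interval 1.16 to 1.70), a log2 fold change of 0.49 ± 0.13 (SE) with an edgeR adjusted p of 0.0165. Of the 6 aged SAHA libraries, 3 lay above all young ones. The share of tested miRNAs with 3 or more above was not counted, and in 0.982% all 6 lay above. The call held when any single one of the 14 libraries was left out (adjusted p 0.00702 to 0.0356). Without aged SAHA 1 the log2 difference was 0.29 with an adjusted p of 0.0315.

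With age alone, miR-142-5p differed by a log2 fold change of 0.32 ± 0.14 (SE) between aged and young vehicle, which did not pass (unadjusted p = 0.0337, edgeR adjusted p = 0.262). In the aged vehicle group 2 of 5 libraries lay above all young ones and none below. Other tested miRNAs that were not called had more, such as miR-153-3p and miR-874-3p with 3 of 5 above and 0 below. The share of tested miRNAs with 2 or more above was not counted. Without both aged SAHA 1 and young vehicle 6 the value was 0.37 with an adjusted p of 0.0111, which passes, and over all alternatives the adjusted p ran from 0.0111 to 0.494. Young vehicle 6 was the highest young library for miR-142-5p (391 CPM), so leaving it out raises this difference by construction. With any single library of the 2 groups left out, the difference did not pass (edgeR adjusted p 0.221 to 0.494). SAHA against aged vehicle gave 0.17 ± 0.15 (SE, adjusted p = 0.625) with all libraries and -0.03 (adjusted p = 0.89) without aged SAHA 1.

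miR-142-3p, the opposite strand, was covered by only 20 to 143 reads per library. Young vehicle libraries ran from 5.26 through a median of 8.56 to 12.1 CPM, aged vehicle libraries read 10.8, 13.2, 11.4, 10.7 and 10.1, and aged SAHA libraries ran from 3.82 through a median of 12.6 to 27.5. Aged SAHA 2 held the lowest and aged SAHA 1 the highest value of all 19, so the treated group enclosed both others. Log2 fold changes were 0.35 ± 0.29 (SE) for age, 0.28 ± 0.30 for SAHA and 0.63 ± 0.27 between aged SAHA and young vehicle, with adjusted p-values of 0.582, 0.663 and 0.107. Without aged SAHA 2 the last became 0.82 (adjusted p = 0.00946), and without aged SAHA 1 the SAHA difference became -0.06 (adjusted p = 0.896).

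miR-21-5p, the abundant strand of the injury-responsive precursor, ranged from 1945 through a median of 2211 to 2932 CPM in young vehicle. Aged vehicle libraries read 2189, 2850, 2127, 2266 and 2199 CPM, inside the young range throughout. Aged SAHA libraries ran from 2015 through a median of 2709 to 3913 CPM, and 5 of the 6 lay above 4 of the 5 aged vehicle libraries. How many tested miRNAs show as much was not counted. The age difference was 0.01 ± 0.12 (SE) on the log2 scale, with a 95% interval of -0.25 to 0.27, and its sign changed with single libraries left out (-0.057 to 0.070). SAHA against aged vehicle gave 0.27 ± 0.13 (SE, unadjusted p = 0.0548, adjusted p = 0.268) with all libraries and 0.15 without aged SAHA 1. Against young vehicle the value was 0.28 ± 0.12 (SE, adjusted p = 0.101), which passed at 0.38 (adjusted p = 0.019) when aged SAHA 4 was left out and at 0.32 (adjusted p = 0.0291) when scaled by library size only.

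miR-21-3p, the minor strand of the same hairpin, read 25.1 through a median of 30.2 to 38.2 CPM in young vehicle. Aged vehicle libraries read 33.4, 29.0, 28.0, 29.8 and 31.8 CPM. In aged SAHA the range was 25.4 through a median of 34.4 to 67.2 CPM, where 5 of the 6 libraries lay above all aged vehicle libraries and 1 (aged SAHA 4) below all of them. The pattern was not particular to miR-21-3p: let-7d-5p, miR-1a-3p, miR-144-5p and miR-342-5p are examples of other tested miRNAs with 5 of 6 above all. In 1.57% of the 509 tested miRNAs, let-7g-5p among them, all 6 lay above. The share of tested miRNAs with 5 of 6 above was not counted. Age gave -0.02 ± 0.16 (SE) on the log2 scale, and -0.064 to 0.025 with single libraries left out. SAHA gave 0.34 ± 0.17 (SE, adjusted p = 0.278), and 0.11 (adjusted p = 0.658) without aged SAHA 1, whose 67.2 CPM was 1.97-fold the median of the other aged SAHA libraries. The difference from young vehicle was 0.32 ± 0.15 (SE, adjusted p = 0.147), and 0.42 (adjusted p = 0.0447) without aged SAHA 4.

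miR-223-3p, the neutrophil and monocyte strand, had 12 to 75 reads per library and was the most variable of the 5 tested members. Young vehicle ran from 1.82 through a median of 5.12 to 12.7 CPM. The aged vehicle libraries read 4.11, 8.19, 3.94, 5.57 and 3.01 CPM, and aged SAHA ran from 2.49 through a median of 5.57 to 13.5. All 3 groups overlapped over most of their range. Its mean coefficient of variation within groups was 55.1%, higher than that of 98.0% of the tested miRNAs and above the 17.1% to 20.2% that counting alone would give. Differences were -0.12 ± 0.44 (SE) for age, 0.44 ± 0.45 for SAHA and 0.32 ± 0.40 between aged SAHA and young vehicle, with adjusted p-values of 0.917, 0.653 and 0.609. The 95% interval of the SAHA difference, -0.51 to 1.38, leaves room for changes of either sign. Single libraries set these values: without young vehicle 4 the age difference was 0.12, and without aged SAHA 3 the SAHA difference was 0.09 and that from young vehicle -0.02.

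**Figure D1:**
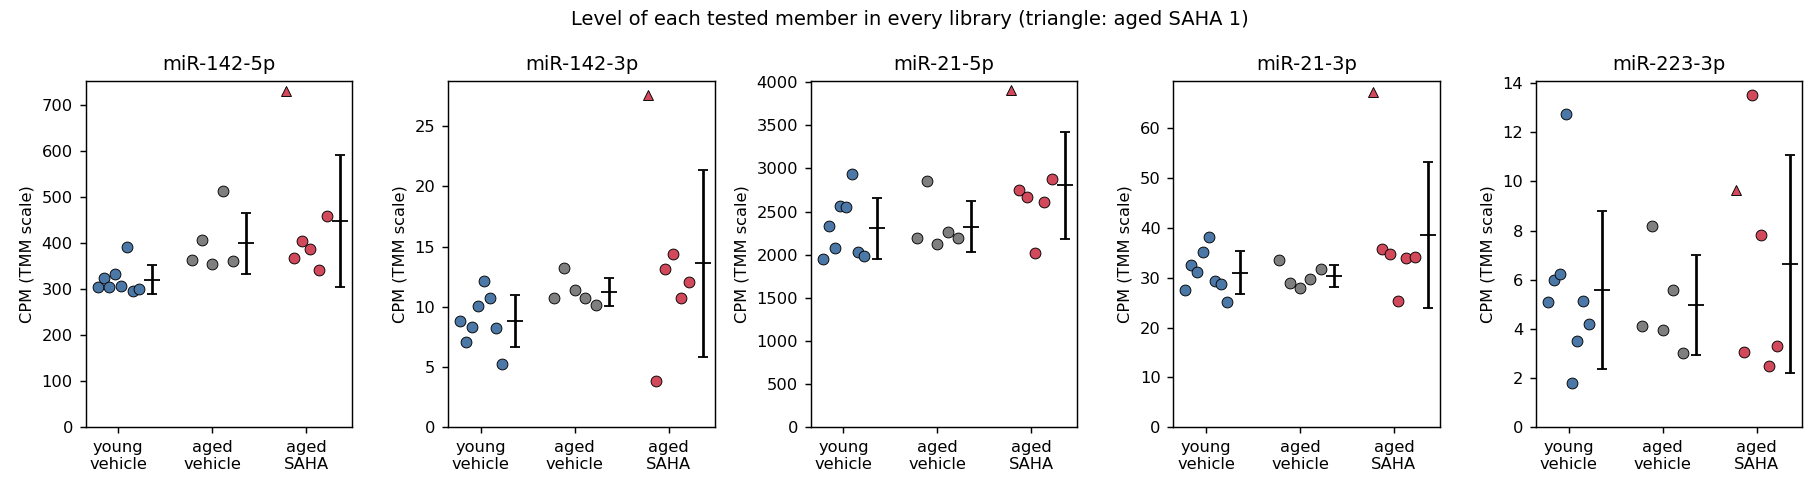
CPM of the 5 tested members (vertical axes, from 0) in libraries of the 3 groups, 1 point per library, with group mean and SD at the right of each group and aged SAHA 1 as a triangle. For miR-142-5p all 11 aged libraries lie above 7 of the 8 young ones, and the triangle at 729 CPM is the highest point.

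Counted over members, the age comparison called 0 of 5 (0.196% of all tested miRNAs were called higher, 1.96% lower and 2.16% in either direction), and 1 member had an unadjusted p under 0.05, against 15.7% of tested miRNAs. DESeq2 and limma-voom with quality weights also called 0, where they called 3.93% and 5.11% of the 509. The members' median log2 difference was 0.01, and that of all tested miRNAs -0.003.

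SAHA against aged vehicle likewise called 0 of 5, where 1.18% of tested miRNAs were called higher, 3.14% lower and 4.32% in either direction. No member had an unadjusted p under 0.05, against 19.4% of miRNAs, and DESeq2 and limma-voom called 0 members, with 10.2% of the 449 miRNAs that DESeq2 gave an adjusted p and 9.23% of 509 called. The members' median was 0.28 and that of all miRNAs -0.01, and 5 of 5 members were above 0. That sign pattern rests in part on aged SAHA 1, without which the arms of miR-142 were at -0.03 and -0.06.

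Aged SAHA against young vehicle called 1 of 5 higher (miR-142-5p), where 5.3% of tested miRNAs were called higher, 8.64% lower and 13.9% in either direction. An unadjusted p under 0.05 was reached by 4 members, against 32.8% of miRNAs, and miR-142-5p was also called by DESeq2 (21.1% of the 489 miRNAs with an adjusted p called) and limma-voom (16.3% of 509). No member separated 2 groups without overlap in any comparison, and 0.982%, 1.57% and 0.982% of miRNAs did so upward in these 3 comparisons, in the order age, SAHA, and both age and drug. The 3 comparisons share libraries, and the last differs in both age and drug.

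**Figure D2:**
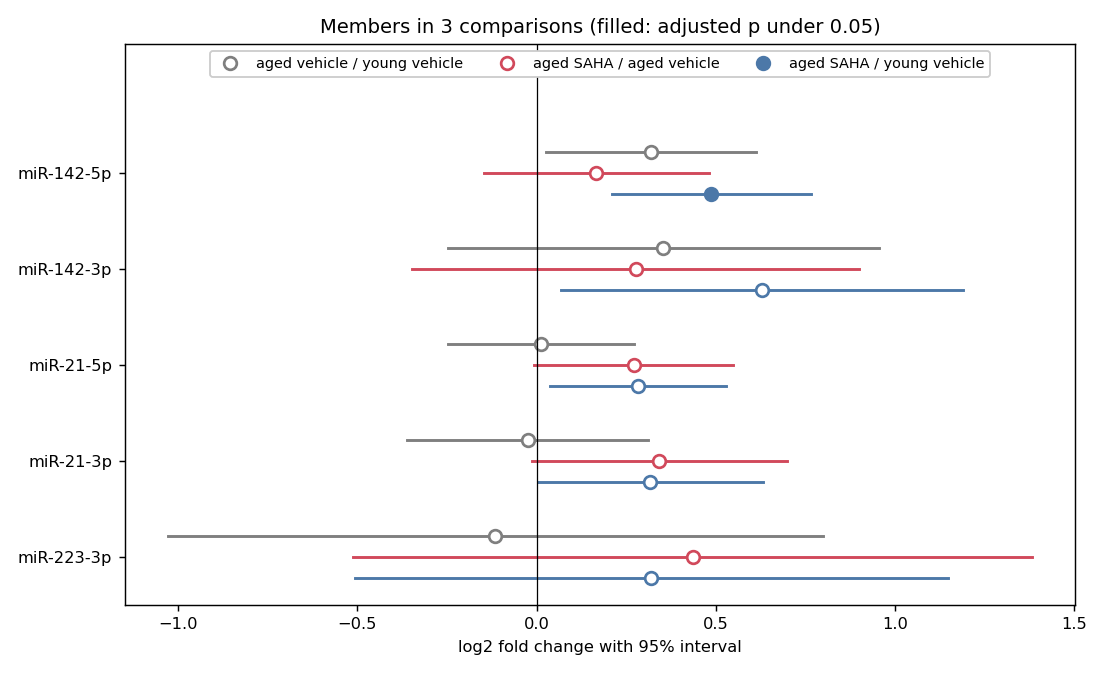
Log2 fold change of each tested member (horizontal axis, bars are 95% intervals) in 3 comparisons, from 1 edgeR fit over 19 libraries, with filled points where the adjusted p is under 0.05. Only miR-142-5p in aged SAHA against young vehicle (0.49) is filled, and the intervals of miR-223-3p are the widest.

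The share of reads from each side of a hairpin needs no scaling between libraries, since both arms are counted in the same one. Of the miR-142 reads, 97.2% were 5p (37085 against 1069 reads, 96.2% to 99.0% per library). Of the miR-21 reads, 98.7% were 5p (241212 against 3259, 98.3% to 99.0% per library). miR-223 was the reverse, with 29 reads of 5p and 550 of 3p, and miR-511 gave 27 of 5p and 30 of 3p.

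The log2 ratio of 5p to 3p reads of miR-142 was 5.201 ± 0.34 (SD, n = 8) in young vehicle, 5.13 ± 0.26 (SD, n = 5) in aged vehicle and 5.195 ± 0.69 (SD, n = 6) in aged SAHA. For miR-21 the means were 6.21 ± 0.19, 6.25 ± 0.23 and 6.22 ± 0.19. None of the 6 differences passed an exact two-sided permutation test (p = 0.713 to 0.988, adjusted p = 0.988 over 6 tests). A single library stood out for miR-142: aged SAHA 2 had a log2 ratio of 6.55, with 20 reads of the 3p arm, while the other 18 libraries lay between 4.65 and 5.81. The low miR-142-3p of that library was thus not accompanied by a low 5p arm (368 CPM).

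**Figure D3:**
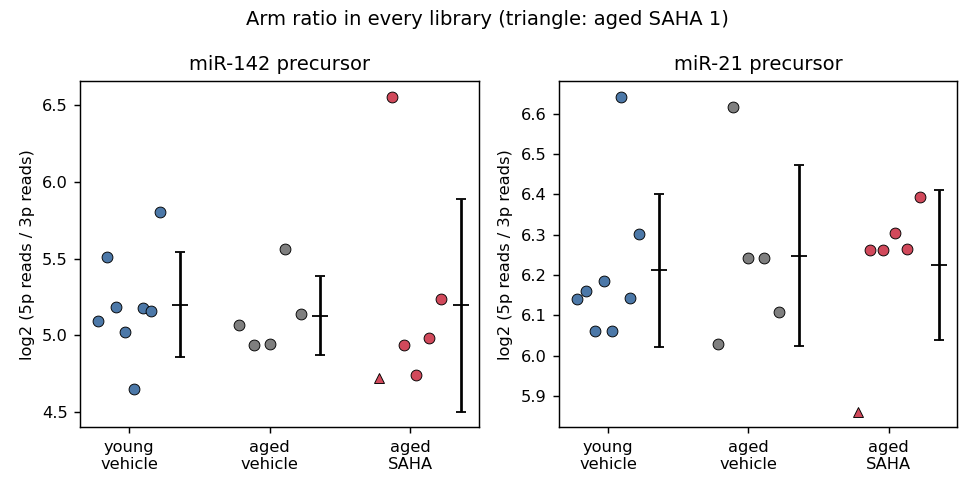
Log2 ratio of 5p to 3p reads (vertical axes, which do not start at 0) for the miR-142 and miR-21 precursors, 1 point per library, with group mean and SD. Groups overlap for both, aged SAHA 2 is the high point of miR-142 at 6.55, and aged SAHA 1 (triangle) is the low point of miR-21 at 5.86.

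Whether members varied together between libraries of the same group was measured on log2 CPM after removing group means, over 19 libraries and 10 pairs with 100000 permutations within groups. miR-21-5p and miR-142-5p varied together (Pearson r = 0.696, permutation p = 0.00651, adjusted p = 0.0325, Spearman rho = 0.653, adjusted p = 0.0063). Without the 2 libraries farthest from the median of miR-21-5p, aged SAHA 1 and 4, r was 0.513, and without aged SAHA 1 and young vehicle 6 it was 0.307 (adjusted p = 0.847). The relation therefore rests on those libraries to a large degree. The arms of miR-21 correlated at r = 0.743 (permutation p = 0.00574, adjusted p = 0.0325, rho = 0.642), and at 0.392 without aged SAHA 1 and 4, while without aged SAHA 1 and young vehicle 6 it was 0.722 (adjusted p = 0.0573). The arms of miR-142 gave r = 0.61 (permutation p = 0.0947, adjusted p = 0.237) and 0.206 without aged SAHA 1 and 2. miR-223-3p passed with no other member, at r between 0.114 and 0.363.

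As a description with no test, the miRNAs whose log2 CPM followed each member most closely over the 19 libraries were listed, 5 per member, and the leading ones are named. Unlike in the correlations above, group means were not removed, so differences between the groups enter every r. Aged SAHA 1 also enters every r, so r without that library is given beside it. For miR-142-5p the closest was miR-155-5p, an activation-induced miRNA of macrophages and lymphocytes (r = 0.904, and 0.809 without aged SAHA 1), then miR-338-3p (0.873 and 0.728), an oligodendrocyte miRNA, and miR-10a-5p (0.797 and 0.714). Its ranks 4 and 5 were also oligodendrocyte miRNAs, miR-219-5p (0.776 and 0.558) and miR-338-5p (0.765 and 0.487). For miR-142-3p it was miR-193-3p (0.811 and 0.739), followed by the oligodendrocyte miR-219-5p (0.804 and 0.668). miR-21-5p ran closest to miR-27b-3p (0.914 and 0.875), miR-181b-5p (0.879 and 0.858) and miR-93-5p (0.875 and 0.854). Next came miR-350-5p (0.829 and 0.717) and the oligodendrocyte miR-219-2-3p (0.819 and 0.7), which was also rank 5 for miR-21-3p (0.717 and 0.469). For miR-21-3p the leading r fell most without aged SAHA 1, from 0.741 to 0.346 with miR-338-5p and from 0.734 to 0.321 with miR-365-3p. miR-223-3p followed the vessel wall and fibroblast miRNAs miR-199a-5p (0.839 and 0.828), miR-145-3p (0.822 and 0.803) and miR-143-3p (0.814 and 0.795).

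miR-155-5p itself was scarce, with 2.07 through a median of 3.03 to 4.44 CPM in young vehicle and 4.30, 7.19, 4.56, 6.65 and 4.14 CPM in aged vehicle. Aged SAHA libraries ran from 3.84 through a median of 7.28 to 23.1 CPM, the top being aged SAHA 1. The high points of miR-142-5p in the aged groups, aged SAHA 1 (729 CPM) and aged vehicle 4 (512 CPM), had 23.1 and 6.65 CPM of miR-155-5p. Aged vehicle 2, aged SAHA 4 and aged SAHA 6 had more miR-155-5p than aged vehicle 4 (7.19, 8.25 and 11.1 CPM) with less miR-142-5p (406, 387 and 459 CPM). Young vehicle 6, the highest young library for miR-142-5p (391 CPM), had 3.30 CPM of miR-155-5p.

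The miRNAs most like miR-223-3p were high in 4 libraries. miR-143-3p, a smooth muscle and pericyte miRNA, stood at 53770 CPM in young vehicle 4, 42860 in aged vehicle 2, 47890 in aged SAHA 1 and 49970 in aged SAHA 3, and at 16240 to 26900 in the other 15. Those 4 libraries also held 12.7, 8.19, 9.63 and 13.5 CPM of miR-223-3p, the top values of their groups. The summed endothelial and mural list, 6 miRNAs of which 0 were called in any of the 3 comparisons, was 53174 to 65584 CPM in the 4 libraries and at most 39010 CPM in the rest. miR-143-3p is the largest part of that sum, at a mean of 26070 CPM over all libraries against 8772 for miR-126-5p, the next. The high sum therefore largely repeats the miR-143-3p values above and adds nothing separate to them. How vessel-associated RNA bears on miR-223-3p was not tested.

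**Figure D4:**
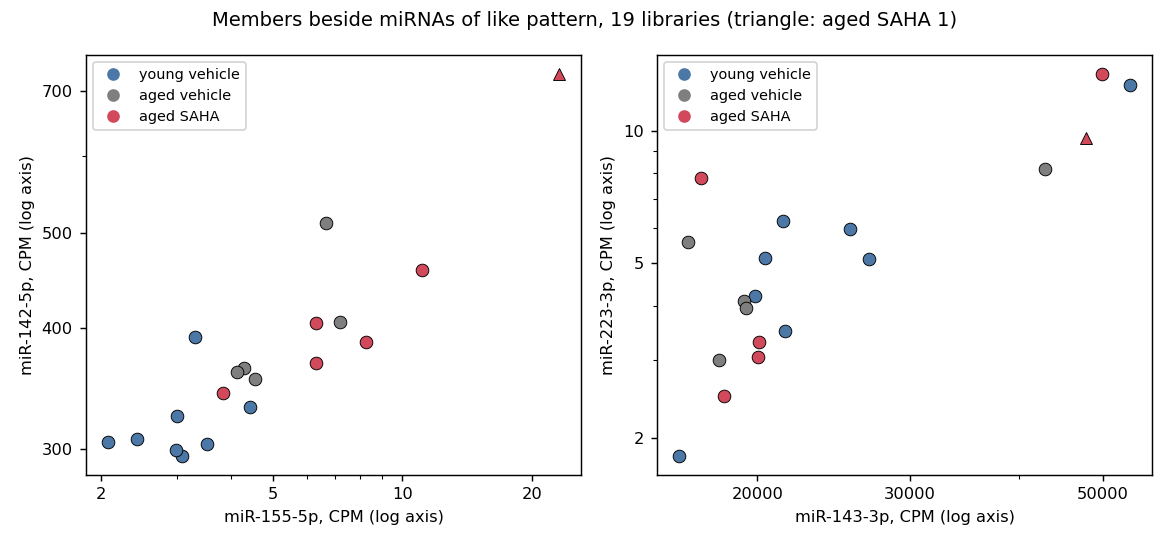
miR-142-5p against miR-155-5p (left) and miR-223-3p against miR-143-3p (right), CPM on log axes, 1 point per library coloured by group, aged SAHA 1 as a triangle. On the right, 4 libraries at 42860 CPM of miR-143-3p or more hold the top miR-223-3p values of their groups.

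Of 12 other miRNAs listed for immune and blood-forming cells, 7 were tested. In aged SAHA against young vehicle 3 rose: miR-146a-5p, a feedback inhibitor of NF-kappaB signalling (log2 fold change 0.95 ± 0.16, adjusted p = 0.000508), miR-155-5p (1.68 ± 0.31, adjusted p = 0.000776) and miR-146b-5p (0.47 ± 0.12, adjusted p = 0.0107). miR-150-5p, a miRNA of mature lymphocytes, fell (-0.56 ± 0.06, adjusted p = 4.42e-06). With age miR-146a-5p rose (0.80 ± 0.17, adjusted p = 0.00938) and miR-150-5p fell (-0.36 ± 0.07, adjusted p = 0.00223). SAHA against aged vehicle called 0 of the 7 (5 positive, 2 negative). List medians were -0.09 (age), 0.15 (SAHA) and 0.14 (aged SAHA against young vehicle). Without aged SAHA 1 the 3 rises against young vehicle held, miR-150-3p fell as well (-0.88, adjusted p = 0.0467), and miR-150-5p fell with SAHA (-0.23, adjusted p = 0.049). miR-146a-3p, miR-155-3p and miR-147-5p were at 0 in 18, 17 and 18 of the 19 libraries.

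The summed level of this list was 1684 to 2172 CPM in young vehicle, 2097 to 2391 in aged vehicle and 1994 to 2988 in aged SAHA, highest in aged SAHA 1 and lowest in young vehicle 6. Its age difference had an exact permutation p of 0.0155, with an adjusted p of 0.0816 over 21 tests of library summaries. The same young vehicle 6 had the highest miR-142-5p of its group and the highest erythrocyte list (4050 CPM, against 2363 to 3449 CPM elsewhere). Of 5 erythrocyte miRNAs, 0 were called in any comparison.

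The oligodendrocyte list summed to 3332 to 4504 CPM in young vehicle, 4046 to 5622 in aged vehicle and 3736 to 8097 in aged SAHA, with 8097 in aged SAHA 1. Its age difference (mean 4642 against 3792 CPM) had an exact permutation p of 0.0109 and an adjusted p of 0.0761. The largest part of that difference was miR-338-3p (3751 against 2993 CPM), and with age 0 of the 4 members were called, all 4 above 0. Of the list's 4 tested members 1 was called in the 3 comparisons, miR-219-2-3p, higher in aged SAHA against young vehicle (0.61 ± 0.13, adjusted p = 0.00309, and 0.48 with adjusted p = 0.00675 without aged SAHA 1). miR-338-3p differed with age by 0.33 ± 0.15 (adjusted p = 0.276), and without aged SAHA 1 and young vehicle 6, where miR-142-5p also passed, it was called higher (0.38, adjusted p = 0.00882). Young vehicle 6 had both the highest oligodendrocyte sum (4504 CPM) and the highest miR-142-5p of the young libraries. The passes of miR-338-3p and miR-142-5p in that fit are therefore not independent. The neuronal list was lower with SAHA, at 70180 ± 2247 CPM (SD, n = 6) against 82730 ± 2179 (SD, n = 5) in aged vehicle (exact permutation p = 0.00433, adjusted p = 0.0455). It was also lower in aged SAHA than in young vehicle, the comparison that holds the call of miR-142-5p, where young vehicle stood at 83920 ± 3779 CPM (SD, n = 8, exact permutation p = 0.000666, adjusted p = 0.014). With SAHA against aged vehicle 2 of its 6 members fell, miR-128-3p (-0.44 ± 0.08, adjusted p = 0.00343) and miR-9-3p (-0.28 ± 0.07, adjusted p = 0.0176). Both also fell against young vehicle (-0.46 ± 0.08, adjusted p = 0.000356, and -0.24 ± 0.06, adjusted p = 0.0107). The largest part of the list's fall with SAHA was miR-128-3p, at 25440 CPM against 34550 in aged vehicle. miR-124-3p hardly differed, at -0.009 with SAHA (edgeR adjusted p = 0.927) and -0.008 against young vehicle (edgeR adjusted p = 0.944). All 6 members were below 0 in both comparisons. CPM are shares of a whole, and how the changes in these 2 lists bear on the values of the miR-142, miR-21 and miR-223 rows was not tested. None of the 4 tested choroid plexus and ciliated epithelium miRNAs was called in any comparison.

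**Figure D5:**
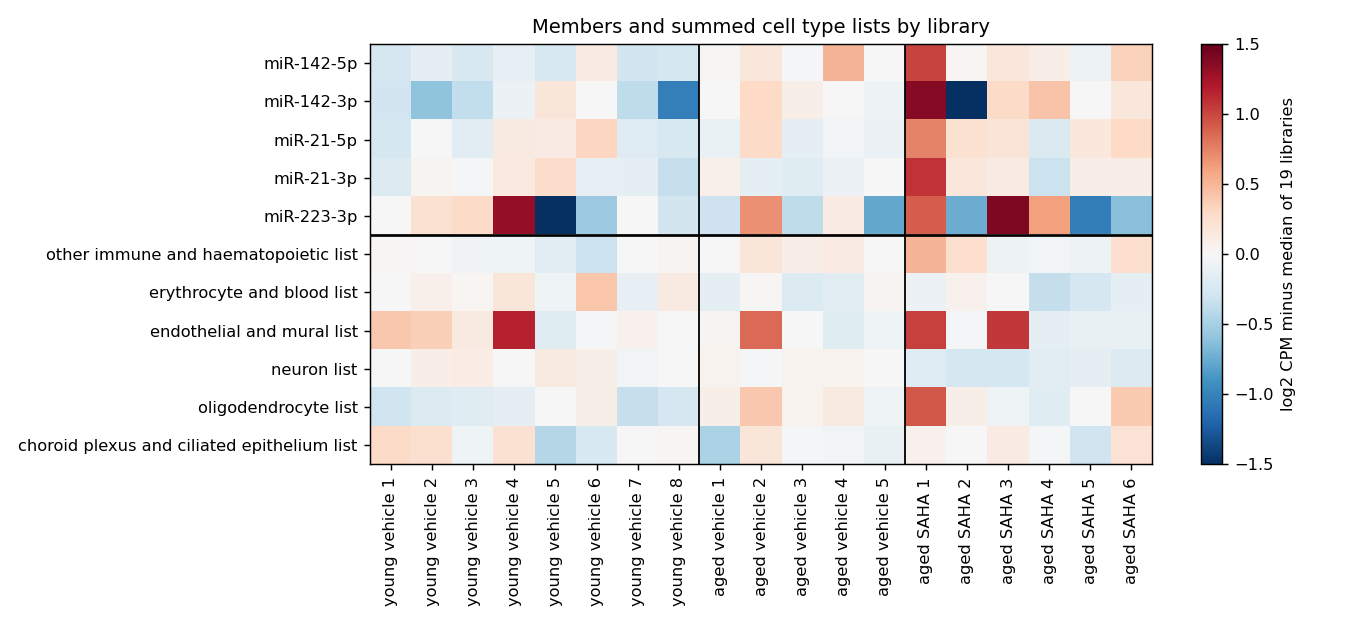
Log2 CPM relative to the median of 19 libraries (colour, red higher) for the 5 tested members above the line and 6 summed cell type lists below it, libraries in columns by group. Aged SAHA 1 is high in all 5 members and in the immune, endothelial and mural, and oligodendrocyte lists, while young vehicle 4, aged vehicle 2 and aged SAHA 3 share high miR-223-3p with the endothelial and mural list. The largest part of the endothelial and mural sum is miR-143-3p.

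The members below the filter were too sparse to compare. miR-223-5p, the minor strand of its hairpin, had 14, 7 and 8 reads in all over young vehicle, aged vehicle and aged SAHA, or 0.325 CPM (95% exact Poisson interval 0.178 to 0.546), 0.281 (0.113 to 0.579) and 0.265 (0.115 to 0.523). Young vehicle 6 alone gave 6 of the 14. miR-511-3p had 13, 10 and 7 reads, or 0.302 (0.161 to 0.517), 0.401 (0.192 to 0.738) and 0.232 CPM (0.0933 to 0.478). miR-511-5p had 12, 11 and 4, or 0.279 (0.144 to 0.487), 0.441 (0.22 to 0.789) and 0.133 CPM (0.0361 to 0.34). Intervals overlapped for all 3 names and cover counting error only. They were at 0 in 4, 4 and 2 of 19 libraries, where a count of 0 allows up to 0.455 to 0.887 CPM (3 counts). Without a filter, edgeR gave miR-511-5p a SAHA difference of -1.57 (unadjusted p = 0.0275, adjusted p = 0.288), and the other 8 tests of these names had adjusted p-values of 0.453 to 0.991.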

How the data were processed

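The authors deposited raw counts of reads for each mature miRNA in every library, as whole numbers with no normalisation. The submitters' processing notes name CASAVA 1.8.2, cutadapt, STAR, HTSeq and mm10, and the miRNA annotation release and the strand setting are not given in these sources. The 4 summary lines were 0 in every library and were left out, so totals are reads assigned to miRNAs. Reads carry no molecular identifiers. No library looked like a copy of another (chi-square per degree of freedom of at least 24.7 in 53 within-group pairs).

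After filterByExpr (at least 10 counts, and 15 in total) and TMM scaling, 1 quasi-likelihood model with a term per group was fitted over all 19 libraries (edgeR 4.0.16, R 4.3.3). A miRNA was called where its p, adjusted by Benjamini-Hochberg over the 509 tested, was under 0.05. The SE is the log2 fold change divided by the square root of F. Arm ratios (0.5 added to each count) and list sums used exact two-sided permutation tests in scipy 1.17.1. The scripts were tested on simulated data. Named beside the members are list members that passed, and miRNAs from the 5 most alike (log2 of CPM + 1) per member. The members, lists and tests were chosen with earlier results of these data known. Alternatives were DESeq2 1.42.0, its size factors, limma-voom (limma 3.58.1), library size only, other filters, fewer groups or libraries and the replicate number as a block. Hosts are from GENCODE M21 and sequences from RefSeq, matched by gene synonym.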

Additional observations from a re-analysis of the deposited data

Results flagged for a closer look

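In 30 groups of values (members and arm ratios by group), 8 had a highest or lowest library whose gap to its neighbour, as a share of the group's range, passed the 95% critical value of Dixon's test, where chance gives about 1 in 20. In young vehicle, miR-142-5p was highest in library 6 at 391.3 CPM (0.621 of the range, critical 0.526) and miR-223-3p in library 4 at 12.72 CPM (0.596). The log2 5p to 3p ratio of miR-21 was highest in young vehicle 6 at 6.642 (0.584). In aged vehicle, miR-21-5p stood highest in library 2 at 2850 CPM (0.808, critical 0.71). Aged SAHA 1 stood out for miR-142-5p at 729.3 CPM (0.7, critical 0.625), for miR-21-3p at 67.21 CPM (0.753) and for the lowest miR-21 arm ratio at 5.861 (0.751). The miR-142 arm ratio was highest in aged SAHA 2 at 6.554 (0.72).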

How the results depend on the processing

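Of 531 alternative values, 467 kept the direction and the side of the threshold, or for counts of calls stayed within 1.5 times, and of the 304 with 1 library left out 268 did. The log2 difference of miR-142-5p between aged SAHA and young vehicle (age and drug, below "both") was above 0 in all alternatives run and was called in all but 2. Those were the replicate block (0.45, adjusted p = 0.0706) and the same libraries with a shared number and no block (0.49, adjusted p = 0.0623), and the cause was not tested. For age, miR-142-5p was called with the block (0.33, adjusted p = 0.0382), with those libraries and no block (0.34, adjusted p = 0.0455) and with aged SAHA 1 and young vehicle 6 left out (0.37, adjusted p = 0.0111). Each of these fits lacks both young vehicle 6, the highest young library for miR-142-5p, and aged SAHA 1. With any single library of the 2 groups left out, the age difference did not pass (edgeR adjusted p 0.221 to 0.494). Which absence moved these values was not tested. The block gave 8 calls in all for SAHA against 22, and the libraries with a shared number without it gave 20 (age), 6 (SAHA) and 43 (both), against 11, 22 and 71. Same-numbered libraries did not deviate together (r -0.327 to 0.344, best with their own number in 1 of 6 for aged SAHA against young vehicle), so the numbers are not read as pairs. The fit of shared-number libraries, and age without aged SAHA 1 in the shared fit (0.32, adjusted p = 0.0521), were added after the data were seen.

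Counts of calls moved to 20 (age) and 46 (SAHA) with DESeq2, 26 and 47 with limma-voom, 19 (age) with only the 2 groups compared, and 18 and 37 without aged SAHA 1 and young vehicle 6. Leaving out 1 library gave 8 to 14 calls (age), 11 to 33 (SAHA) and 57 to 81 (both). SAHA calls numbered 13 when aged vehicle 1 was dropped, 14 when aged vehicle 3 was, and 11 when aged SAHA 6 was. With library size only, miR-21-3p turned to 0.011 for age and miR-21-5p was called in aged SAHA against young vehicle (0.32, adjusted p = 0.0291). With limma-voom, miR-142-3p turned to -0.089 for SAHA and miR-223-3p to -0.050 in aged SAHA against young vehicle. Without aged SAHA 1 and young vehicle 6, the SAHA values of miR-142-3p and miR-142-5p were -0.060 and -0.028. The cause of these changes was not tested.

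With 1 library left out, age values ranged from -0.064 to 0.025 for miR-21-3p, -0.057 to 0.070 for miR-21-5p, -0.36 to 0.12 for miR-223-3p and 0.24 to 0.37 for miR-142-5p. SAHA values ranged from -0.059 to 0.47 for miR-142-3p and -0.027 to 0.28 for miR-142-5p, both lowest without aged SAHA 1, and that of miR-223-3p fell to 0.09 without aged SAHA 3. In aged SAHA against young vehicle the ranges were 0.29 to 0.82 for miR-142-3p (called without aged SAHA 2), 0.084 to 0.42 for miR-21-3p and 0.16 to 0.38 for miR-21-5p (both called without aged SAHA 4, adjusted p = 0.0447 and 0.019), and -0.024 to 0.56 for miR-223-3p. Arm ratio differences ranged, for miR-142, from -0.18 to 0.015 (age), -0.21 to 0.17 (SAHA) and -0.28 to 0.088 (both), and for miR-21 from -0.056 to 0.098, -0.078 to 0.069 and -0.021 to 0.085. Adding 5 to each count turned the last miR-142 difference from -0.0060 to 0.0092. The correlation of miR-21-3p with miR-223-3p turned from 0.124 to -0.202 without aged SAHA 1 and young vehicle 6, and with library size only those of miR-21-5p with miR-142-5p (0.61) and between the arms of miR-21 (0.66) no longer passed (both adjusted p = 0.158). The filter of CPM 10 in 5 libraries removed miR-223-3p. Depth limits miR-223-3p (12 to 75 reads per library), miR-142-3p (20 to 143) and the 3 untested members (6 or fewer).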
